A study of Homo sapiens with 6 samples.

Results

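The integrin subunits examined here are 10 genes, chosen by symbol: the α chains ITGA2, ITGA3, ITGA5, ITGA6 and ITGAV, and the β chains ITGB1, ITGB3, ITGB4, ITGB5 and ITGB8. All 10 were listed among the 24551 gene symbols of the RNA-Seq tables, each on a single row, and 9 of them reached the mean of 1 FPKM (fragments scaled to transcript length and to the library's mapped fragments) that a gene needed to be tested. ITGB8 did not, so its values are given without a test. The libraries came from 2 established human cancer cell lines, DU145 from a prostate carcinoma and 769-P from a renal cell adenocarcinoma. Each line was transfected with a negative control siRNA, with SPOP siRNA 1 or with SPOP siRNA 2, and each of these 6 conditions had 1 library. SPOP is the substrate-binding subunit of a cullin 3 ubiquitin ligase, and the study compared the effect of its knockdown in prostate and kidney cancer cells. No other allele or agent is named in the labels. With 1 control per line, both knockdown differences of a line rest on the same control value, and the spread between libraries comes from different siRNAs. The p-values below therefore measure only the spread between these libraries.

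Integrins are cell surface receptors made of an α and a β chain, which pair in the endoplasmic reticulum before they reach the membrane. The pair sets the ligand: β1 with α2 binds collagens, with α3 or α6 laminins and with α5 fibronectin, while the αv pairs read the RGD motif of proteins such as vitronectin and fibronectin, and α6β4 anchors epithelial cells to laminin in hemidesmosomes. Inside the cell the tails bind talin, kindlins and the ILK complex, which link adhesion to actin and to growth signals in epithelial tumours.

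For 3 α members whose levels separated the lines, the 250 bases before the RefSeq transcription start are shown (GRCh38.p14, plus strand for each gene). ITGA2 and ITGA6 were the α members higher in DU145 and ITGAV the one higher in 769-P. Capitals mark the GC box GGGCGG, which Sp1-family factors bind and which was searched for on both strands.
ITGA2, chr5:52989102-52989351: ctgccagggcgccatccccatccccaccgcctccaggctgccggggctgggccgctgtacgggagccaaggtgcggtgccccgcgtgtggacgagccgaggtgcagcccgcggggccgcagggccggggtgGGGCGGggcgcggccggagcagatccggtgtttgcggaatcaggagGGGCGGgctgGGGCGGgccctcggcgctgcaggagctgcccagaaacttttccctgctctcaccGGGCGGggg
ITGA6, chr2:172427336-172427585: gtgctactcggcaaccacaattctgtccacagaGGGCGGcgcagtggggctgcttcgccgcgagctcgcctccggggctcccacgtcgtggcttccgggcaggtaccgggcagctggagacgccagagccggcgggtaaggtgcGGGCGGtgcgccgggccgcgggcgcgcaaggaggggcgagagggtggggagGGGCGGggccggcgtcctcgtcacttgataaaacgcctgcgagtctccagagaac
ITGAV, chr2:186589806-186590055: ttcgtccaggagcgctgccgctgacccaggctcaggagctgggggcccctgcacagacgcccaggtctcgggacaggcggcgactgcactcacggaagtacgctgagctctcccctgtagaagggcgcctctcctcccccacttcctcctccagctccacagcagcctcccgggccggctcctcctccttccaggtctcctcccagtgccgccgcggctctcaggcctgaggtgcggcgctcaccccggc
The ITGA2 window held 4 GC boxes, the ITGA6 window 3 and the ITGAV window 0, and 42.6% of 35116 such windows held at least 1. None of the 3 windows held the AP-1 letters TGACTCA, the TATA letters TATAAA, the E-box letters CACGTG or the letters CCAAT on either strand; these were found in 4.20%, 10.7%, 6.34% and 32.0% of all windows. GC content was 76.4% for ITGA2, 71.6% for ITGA6 and 70.8% for ITGAV, above the median of 58% of all windows. A match in letters is a description of the window, and factor binding was not measured. Of the 10 members, 7 had a window in the promoter table. The windows not shown held 3 GC boxes for ITGB1 and 2 for ITGB8, both of which were higher in 769-P. Those of ITGB5 and ITGA5, whose levels overlapped between the lines, held 2 and 1. A relation between GC boxes and level was not tested.

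SPOP itself checked the labels: it stood at 16.1 FPKM in the DU145 control and at 2.77 and 2.96 with the siRNAs, and at 11.6, 1.53 and 1.39 in 769-P, so that 12.04% to 18.4% of the control level was left. The renal lineage factor PAX8 was at 106 to 125 FPKM in 769-P and at most 1.47 in DU145, while the prostate markers KLK3, KLK2, HOXB13, TMPRSS2 and FOLH1 stayed under 0.5 FPKM in every library, those of DU145 included. The kidney markers CA9 and NDUFA4L2 were listed at 0 in 769-P. Markers of other cell types stayed under 0.5 FPKM in every library for 4 of 8 leukocyte genes, 4 of 4 endothelial genes and 3 of 5 fibroblast genes, and PTPRC, PECAM1 and DCN were at or near 0. The other leukocyte genes did not: CD14 reached 1.59 and ITGB2 29.4 FPKM in DU145, and ITGAM 1.29 and ITGAX 0.767 FPKM in 769-P. Relative depth ran from 0.683 to 1.40 of the 769-P control, and the number of reads behind a value is not known. The DU145 control and the 769-P siRNA 2 library stood apart: 287 and 237 of 366 olfactory receptor genes, which such cells are not known to use, were above 0 there, against 3 to 5 in the others, with a mean of 0.345 and 0.227 FPKM. Member levels near or under these means are marked as such below.

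Both lines put most of their integrin transcript into ITGA3 and ITGB1, and differed in the members around them. In DU145, α2, α6 and β4 were the higher chains, and in 769-P, αv, β3 and β1. By limma, 6 of the 9 members tested differed between the lines, 3 in each direction, where 46.4% of all 11865 genes tested did so. The 3 libraries of one line lay wholly apart from the 3 of the other in 6 of the 9 members tested and in 7 of 10 with ITGB8, beside 56.3% of all genes tested. Each line stands for 1 tumour, so these are differences between lines and not between organs. In bulk RNA, fewer cells that express a gene and less RNA per cell cannot be told apart.

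**Figure D1:**
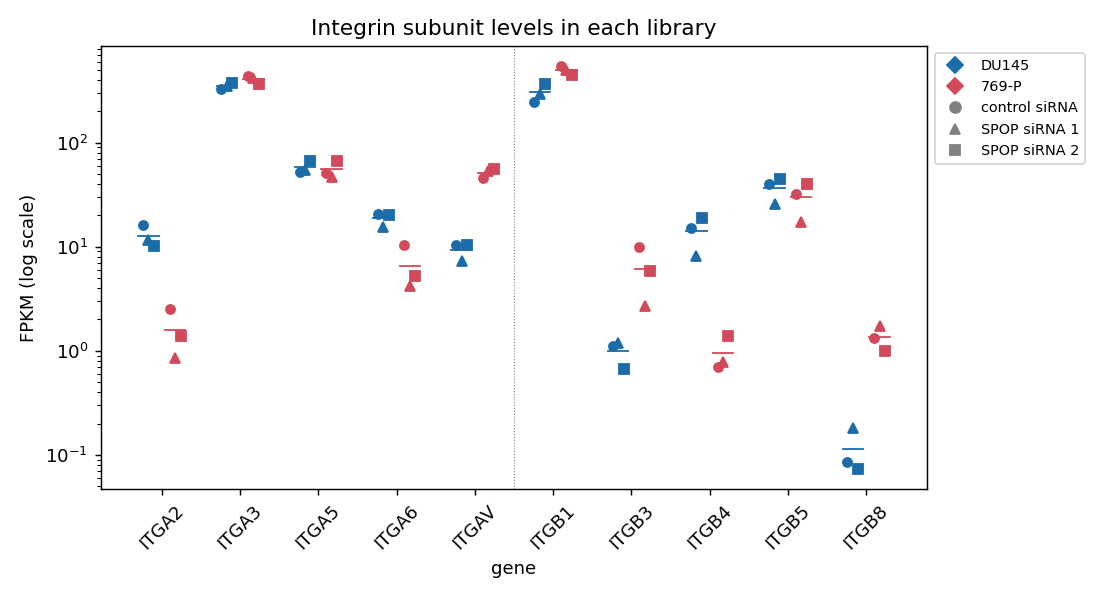
FPKM of the 10 integrin subunits in each of the 6 libraries, on a log axis; blue is DU145 and red 769-P, circles are control siRNA, triangles SPOP siRNA 1 and squares SPOP siRNA 2, and horizontal lines are the means of 3 libraries. ITGA2, ITGA6 and ITGB4 lay higher in DU145 (means 12.7, 18.7 and 14.1 FPKM) and ITGAV and ITGB3 higher in 769-P (51.6 and 6.17 FPKM), while ITGA3 and ITGA5 overlapped.

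Among the laminin receptors, ITGA3 (GRCh37, chromosome 17, 48133332 to 48167845, plus strand) was the most abundant α chain in every library. It stood at 324, 348 and 375 FPKM in DU145 control, siRNA 1 and siRNA 2, and at 441, 417 and 369 FPKM in 769-P. These ranges overlapped, and the difference of -0.23 on the log2(FPKM + 1) scale, DU145 minus 769-P, did not pass limma (95% interval -0.54 to 0.08, adjusted p = 0.206). The gene lies 378 kb from SPOP on the same chromosome.

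ITGA6 (chromosome 2, 173292082 to 173371187, plus strand) is the laminin-binding chain that pairs with β1 or β4. It was measured at 20.6, 15.4 and 20.1 FPKM in DU145 and at 10.3, 4.16 and 5.21 FPKM in 769-P. Every DU145 library lay above every 769-P library, by 2.85-fold between the means (log2 difference 1.46, SE 0.29, limma adjusted p = 0.00319). Its partner ITGB4 (chromosome 17, 73717408 to 73753899, plus strand), whose long cytoplasmic tail attaches to keratin filaments through plectin, differed more. ITGB4 was at 15.1, 8.11 and 19.0 FPKM in DU145 and at 0.706, 0.784 and 1.39 FPKM in 769-P. The means were 14.7-fold apart (log2 difference 2.89, SE 0.30, limma adjusted p = 7.50e-05), and ITGB4 took the last place among the 10 members in 769-P. The highest of its 769-P values came from the siRNA 2 library, where the mean of olfactory receptor genes was 0.227 FPKM; the part of that background in the value was not tested.

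ITGA2 (chromosome 5, 52285170 to 52390609, plus strand), the collagen-binding partner of β1, was also a DU145 gene. Its values were 16.3, 11.5 and 10.2 FPKM in DU145 and 2.51, 0.850 and 1.38 FPKM in 769-P. The groups did not overlap, and the means differed 8.01-fold (log2 difference 2.43, SE 0.27, limma adjusted p = 0.000121). In each line the control was the highest of the 3 libraries.

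The fibronectin receptor chain ITGA5 (chromosome 12, 54789045 to 54813050, minus strand) was alike in level. It was at 52.0, 55.0 and 66.2 FPKM in DU145 and 51.3, 47.1 and 67.2 FPKM in 769-P, and the siRNA 2 library was the highest in both. The log2 difference between the lines was 0.07 (95% interval -0.35 to 0.49, limma adjusted p = 0.776).

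ITGAV (chromosome 2, 187454737 to 187545628, plus strand), the common α chain of the RGD receptors, ran the other way. It was at 10.5, 7.23 and 10.3 FPKM in DU145 and at 46.2, 53.3 and 55.2 FPKM in 769-P, without overlap. The 769-P mean was 5.52-fold higher (log2 difference -2.36, SE 0.19, limma adjusted p = 1.66e-05), the smallest adjusted p of the members. Of its β partners, ITGB3 (chromosome 17, 45331193 to 45391109, plus strand), the β chain of the vitronectin receptor, was at 1.12, 1.18 and 0.666 FPKM in DU145 and at 9.90, 2.71 and 5.89 FPKM in 769-P. The 769-P mean was 6.24-fold higher (log2 difference -1.73, SE 0.36, limma adjusted p = 0.00386).

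ITGB5 (chromosome 3, 124480795 to 124620265, minus strand), which pairs with αv alone, had 39.9, 25.7 and 44.3 FPKM in DU145 and 32.1, 17.5 and 40.5 FPKM in 769-P. The ranges overlapped, with a log2 difference of 0.32 (95% interval -0.40 to 1.04, limma adjusted p = 0.432). ITGB8 (chromosome 7, 20370325 to 20455377, plus strand), the β chain of the αv receptor that activates latent TGF-β, was low. It was at 0.0850, 0.180 and 0.0733 FPKM in DU145 and at 1.34, 1.73 and 1.004 FPKM in 769-P. Its 2 sets of libraries did not overlap, but the DU145 control value lay below the olfactory receptor mean of 0.345 FPKM in that library.

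ITGB1 (chromosome 10, 33176201 to 33294720, minus strand), the β chain shared by the collagen, laminin and fibronectin receptors, was at 247, 294 and 369 FPKM in DU145 and at 544, 504 and 443 FPKM in 769-P. The lowest 769-P library was above the highest DU145 library. The means differed 1.64-fold (log2 difference -0.73, SE 0.17, limma adjusted p = 0.00820), the smallest difference of the 6 members that passed.

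Ordered by mean within DU145, the levels per length ran ITGA3, ITGB1, ITGA5, ITGB5, ITGA6, ITGB4, ITGA2, ITGAV, ITGB3 and ITGB8. The ranges of ITGA3 (349 ± 25.5 FPKM, SD, n = 3) and ITGB1 (303 ± 61.3) overlapped, as did each neighbouring pair from ITGA6 (18.7 ± 2.85) through ITGB4 (14.1 ± 5.54) and ITGA2 (12.7 ± 3.20) to ITGAV (9.34 ± 1.83). The other neighbours were apart. In 769-P the order was ITGB1, ITGA3, ITGA5, ITGAV, ITGB5, ITGA6, ITGB3, ITGA2, ITGB8 and ITGB4. There ITGB1 (497 ± 50.8 FPKM, SD, n = 3) and ITGA3 (409 ± 36.7) did not overlap. ITGA5 (55.2 ± 10.6) overlapped with ITGAV (51.6 ± 4.74), ITGA6 (6.57 ± 3.31) with ITGB3 (6.17 ± 3.60), and ITGA2 (1.58 ± 0.847) with ITGB8 (1.36 ± 0.361), which overlapped in turn with ITGB4 (0.961 ± 0.376).

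As a share of the summed FPKM of the 5 α members, ITGA3 made up 78.0% ± 1.53 in DU145 and 78.0% ± 3.36 in 769-P (SD, n = 3 each). The rest was divided differently: ITGAV made up 2.09% in DU145 and 9.89% in 769-P, and ITGA6 4.19% and 1.24%. Among the β members ITGB1 made up 85.3% ± 3.90 in DU145 and 92.8% ± 2.81 in 769-P, and the 2 ranges (81.5% to 89.3% and 90.1% to 95.7%) did not overlap. The difference of -7.43 percentage points had p = 0.1 by a two-sided exact permutation test, the smallest that 3 against 3 libraries allow. ITGB5 was the next β member, at 10.4% in DU145 and 5.67% in 769-P.

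**Figure D2:**
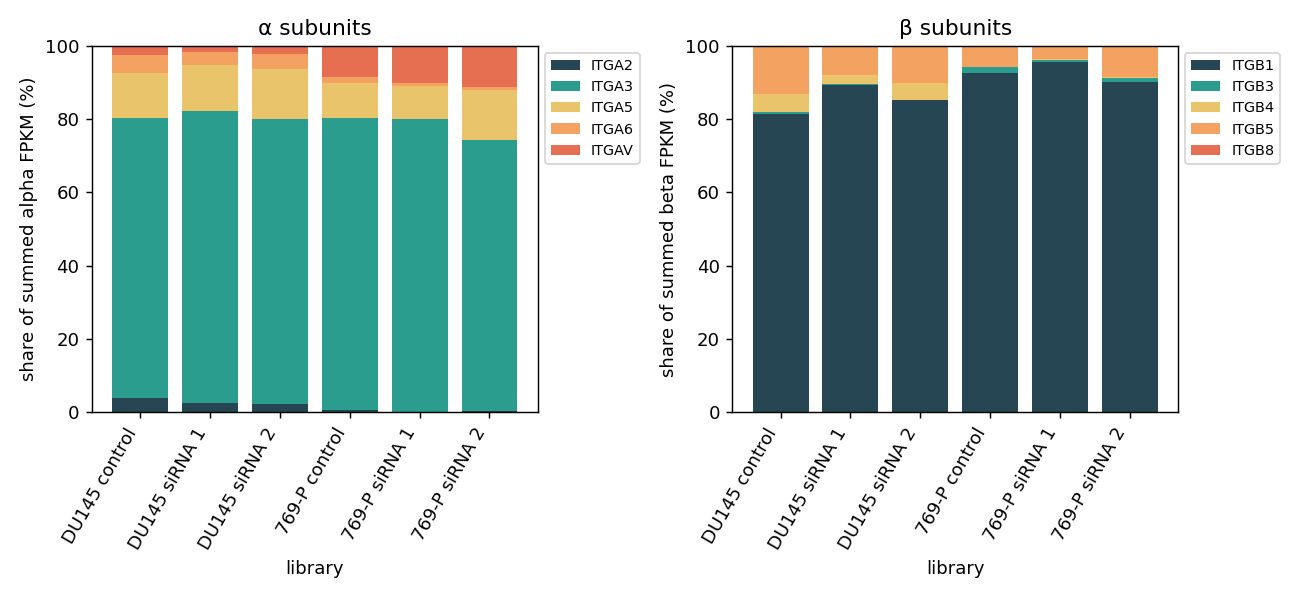
Share in percent of the summed FPKM of the 5 α members (left) and the 5 β members (right) in each of the 6 libraries; each bar sums to 100% and each colour is 1 gene. ITGA3 fills 78.0% of the α bar on average in both lines, and the ITGB4 band, 3.95% of the β bar in DU145, shrinks to 0.184% in 769-P.

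Since a receptor needs both chains, the lower of the 2 transcripts was taken for each of 9 known pairs. This is a level of RNA, and neither surface protein nor pairing was measured. For α3β1 the lower chain was ITGB1 in DU145 (303 ± 61.3 FPKM) and ITGA3 in 769-P (409 ± 36.7), and the ranges just overlapped at 369 FPKM. For α5β1 it was ITGA5 in both lines, at 57.7 and 55.2 FPKM. In the other 7 of 9 pairs the lines did not overlap, beside 56.3% of all single genes tested. Each pair value is the level of a single member in that library, so these pairs restate the member levels above.

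The laminin and collagen pairs α6β4 (14.1 FPKM in DU145 and 0.961 in 769-P, both set by ITGB4), α2β1 (12.7 and 1.58, set by ITGA2) and α6β1 (18.7 and 6.57, set by ITGA6) were higher in DU145. All 4 αv pairs were higher in 769-P: αvβ1 at 9.34 FPKM in DU145 and 51.6 in 769-P, αvβ3 at 0.988 and 6.17, αvβ5 at 9.34 and 30.0, and αvβ8 at 0.113 and 1.36. The chain that set αvβ5 changed with the line. In DU145 it was ITGAV, the less abundant of the pair, and in 769-P it was ITGB5, so that a pair whose β chain did not pass the test between lines still separated them.

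**Figure D3:**
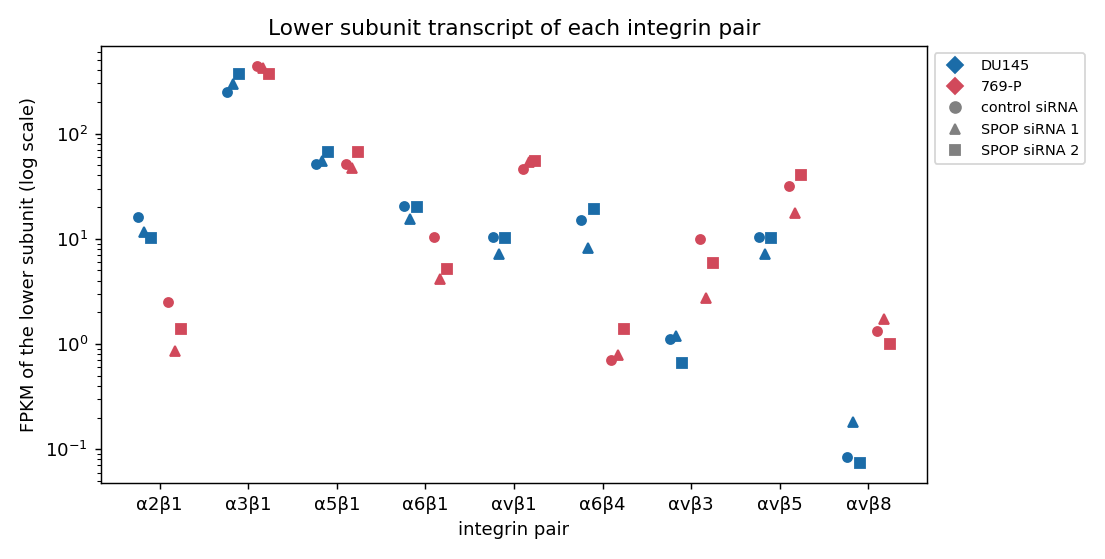
FPKM, on a log axis, of the less abundant subunit transcript of 9 integrin pairs in each library; blue is DU145 and red 769-P, circles are control siRNA, triangles SPOP siRNA 1 and squares SPOP siRNA 2. The 3 pairs α2β1, α6β1 and α6β4 lie higher in DU145 and the 4 αv pairs higher in 769-P.

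With SPOP knockdown, ITGA6 and ITGB3 were lower with both siRNAs in 769-P by at least 1.5-fold on the log2(FPKM + 1) scale, and no member moved that far with both siRNAs in DU145. Thus 0 of 9 members met the rule in DU145, beside 5.91% of all genes tested, and 2 of 9 in 769-P, beside 7.32% of all genes in either direction and 3.73% downward. No member passed limma at an adjusted p of 0.05 in DU145 (background 0.135%), in 769-P (0.101%) or in the difference between the lines' knockdown effects (0.169%). At an unadjusted limma p under 0.05 the counts were 0, 3 (ITGA2, ITGA6 and ITGB3) and 0 members, and 744, 827 and 325 of all genes. SPOP did not pass either (adjusted p = 0.134 in DU145 and 0.0948 in 769-P by limma), so a miss in this design says little. The median log2 difference was -0.21 over the 9 members and 0.09 over all genes in DU145, and -0.20 and -0.03 in 769-P.

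ITGA6 in 769-P was left at 40.2% of control with siRNA 1 and 50.3% with siRNA 2. The log2 differences were -1.14 and -0.87, with a mean of -1.003 (SE 0.28, limma adjusted p = 0.693). In DU145 they were -0.39 and -0.03. The effect in DU145 minus that in 769-P was 0.79 (SE 0.40, limma adjusted p = 0.999), so a difference between the lines was not shown. ITGB3 in 769-P was left at 27.4% and 59.5% of control, with log2 differences of -1.55 and -0.66 and a mean of -1.11 (SE 0.43, limma adjusted p = 0.709). In DU145, where ITGB3 was near 1 FPKM, they were 0.04 and -0.35.

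ITGA2 was below its control in all 4 knockdown libraries and came just short of the rule in both lines. The log2 differences were -0.47 and -0.62 in DU145 (mean -0.55, SE 0.28, limma adjusted p = 0.815) and -0.92 and -0.56 in 769-P (mean -0.74, SE 0.28, limma adjusted p = 0.708). In 769-P the knockdown values of ITGA2 were near 1 FPKM, and its mean difference depended on the pseudocount, at -1.14 with 0.1. With siRNA 1 left out, ITGA2 met the rule in DU145. With siRNA 2 left out, ITGB4 and ITGB5 met it in DU145, and ITGA2, ITGA6, ITGB3 and ITGB5 in 769-P.

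ITGB5 in both lines and ITGB4 in DU145 lay below the control with one siRNA and above it with the other. ITGB5 was at -0.61 with siRNA 1 and 0.15 with siRNA 2 in DU145, and at -0.84 and 0.33 in 769-P, on the log2 scale. In both lines the siRNA 1 library was the lowest of the 3 and the siRNA 2 library the highest. ITGB4 gave -0.82 and 0.31 in DU145. In 769-P, where ITGB4 was near 1 FPKM, the values were 0.06 and 0.49. Of the 9 members tested ITGB5 had the widest limma error for knockdown, with an SE of 0.56 in each line. ITGA5 also had its higher value with siRNA 2 in both lines, at 0.08 and 0.34 in DU145 and -0.12 and 0.39 in 769-P.

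ITGA3, ITGB1 and ITGAV lay on opposite sides of their controls in the lines. The share of all genes that did so was not counted. ITGA3 was at 0.10 and 0.21 in DU145 and -0.08 and -0.26 in 769-P on the log2 scale, and ITGB1 at 0.25 and 0.57 in DU145 and -0.11 and -0.29 in 769-P. ITGAV gave -0.48 and -0.03 in DU145 and 0.20 and 0.25 in 769-P. None of these mean effects passed limma; the adjusted p was 0.824 for ITGB1 in DU145 and 0.856 in 769-P.

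**Figure D4:**
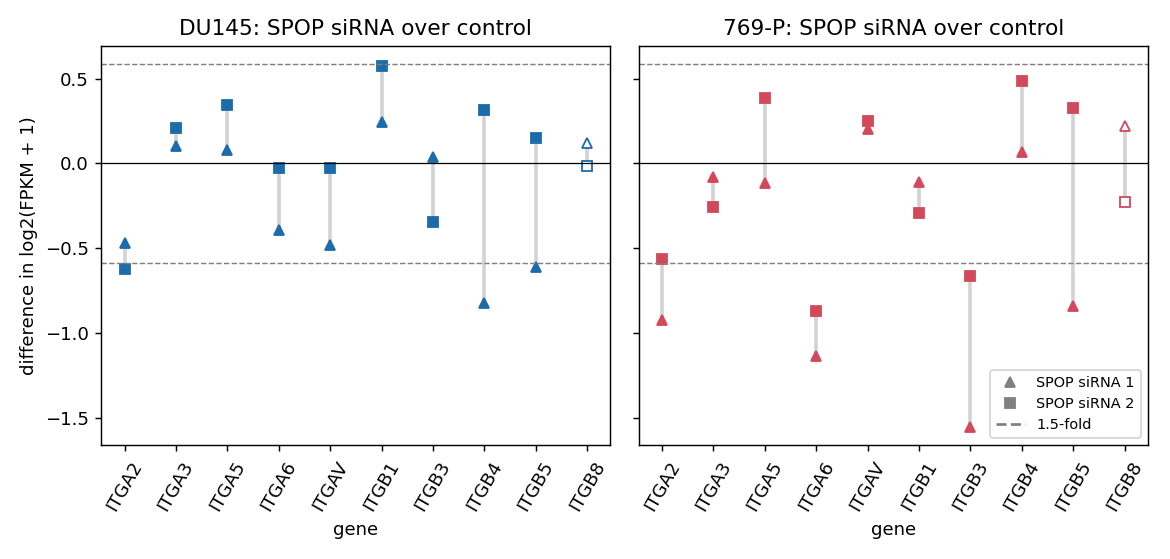
Difference in log2(FPKM + 1) between each SPOP siRNA library and the control of its line, for the 10 members in DU145 (left) and 769-P (right); triangles are siRNA 1, squares siRNA 2, grey bars join them, dashed lines mark 1.5-fold, and open symbols mark ITGB8, which was too low to be tested. In 769-P both symbols of ITGA6 and ITGB3 lie under the lower dashed line, and in DU145 no gene has both symbols beyond a line.

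The genes whose 4 knockdown differences lay closest to those of ITGA6 (Euclidean distance over the 4 log2 differences) were SLC39A8, a zinc and manganese importer, at a distance of 0.0929, OSGEPL1 at 0.151 and GPR160 at 0.200. Closest to ITGA2 were the joint row of FAM89A and MIR1182 at 0.148, the interferon-induced IFIT2 at 0.184 and the joint row of the paralogs CBWD3 and CBWD5 at 0.188. With 4 values that share 2 controls, this likeness is a description.

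Among the matrix ligands that these receptors bind, 2 of 19 tested were at least 1.5-fold higher with both siRNAs in each line and none lower, beside 560 of all 11865 genes higher in DU145 and 427 in 769-P. In 769-P these were fibronectin (FN1), at 87.5 FPKM in the control and 155 and 174 with the siRNAs, and thrombospondin 1 (THBS1), at 21.6, 60.7 and 34.7. In DU145 they were the laminin chain LAMA1, at 5.56, 11.7 and 9.35 FPKM, and perlecan (HSPG2), at 10.2, 16.0 and 16.3. None of the 4 passed limma (adjusted p from 0.713 to 0.786). The collagen gene COL1A1, a fibroblast marker, also stood higher in 769-P with both siRNAs, at 1.71, 9.68 and 7.36 FPKM. It did not pass limma either (adjusted p = 0.392). PDGFRB was at 0.0771, 0.651 and 0.328 FPKM there, too low to be tested. Its siRNA 2 value was near the olfactory receptor mean of 0.227 FPKM in that library. Of the other fibroblast markers COL1A2 was at 0, 0.0382 and 0.0289 FPKM there, and DCN and LUM were listed at 0. The part of such markers in the ligand values was not tested. The ligands LAMA5 and LAMB3 share rows with microRNAs and were not counted here. The LAMA5 row lay below its control in every knockdown library, and both rows are given at the end.

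Between the lines, 18 of the 19 ligands differed by limma, 9 in each direction, beside 46.4% of all genes tested. Osteopontin (SPP1), an RGD ligand of αv integrins, was at 213 to 382 FPKM in 769-P and at most 3.95 in DU145 (log2 difference -6.21, adjusted p = 7.79e-07). FN1 was also higher in 769-P (-4.50, limma adjusted p = 2.90e-05), and tenascin C (TNC) higher in DU145 (4.80, limma adjusted p = 2.04e-05).

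Of 31 adaptor and focal adhesion genes tested, 0 met the fold rule in DU145 and 2 did in 769-P (6.45%, near the 7.32% of all genes). These were ILK, the kinase-like scaffold that binds β1 and β3 tails, at 69.8, 106 and 107 FPKM, and LIMS2, an ILK partner, at 7.66, 41.0 and 12.3; both were higher, and neither passed limma for knockdown (adjusted p = 0.693 and 0.715). Between the lines, where 46.4% of all genes passed limma, 9 adaptors were higher in DU145, such as kindlin 1 (FERMT1, 2.53, adjusted p = 1.13e-05), and 12 in 769-P, such as tensin 1 (TNS1, -3.78, adjusted p = 1.31e-06) and LIMS2 (-2.46, adjusted p = 0.00315).

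Of 11 hemidesmosome and tetraspanin partners, the tetraspanin CD82 was lower with both siRNAs in DU145, at 20.9, 11.6 and 13.03 FPKM, and none met the rule in 769-P. CD82 did not pass limma (adjusted p = 0.774), and 5.91% of all genes met the rule in DU145. CD9, a tetraspanin that associates with β1 integrins, was at 93.6 to 116 FPKM in DU145 and at most 0.781 in 769-P (log2 difference 6.15, limma adjusted p = 7.84e-07). SLC3A2, which binds β chains as CD98, was higher in DU145 (1.01, limma adjusted p = 0.000823), as was DST, a hemidesmosome plakin (0.70, limma adjusted p = 0.0225). In total 3 of the 11 were higher in DU145 and 1 in 769-P, beside 46.4% of all genes in either direction.

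No trafficking or inhibitor gene of 14 tested met the fold rule in either line. By limma 5 were higher in DU145 and 1 in 769-P, close to the 46.4% of all genes that differed. The endocytic adaptor DAB2 was the 769-P gene (-2.52, limma adjusted p = 5.81e-06), and ARF6 (1.32, adjusted p = 0.000523) and NUMB (1.07, adjusted p = 0.00216) were higher in DU145.

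**Figure D5:**
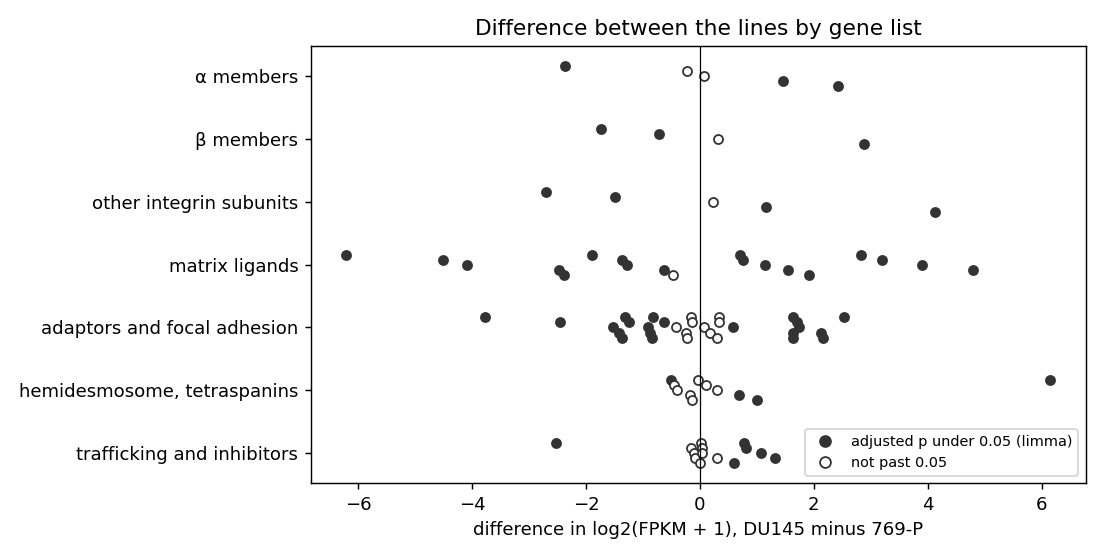
Difference in log2(FPKM + 1), DU145 minus 769-P, of each tested gene in the α and β members and in 5 lists of related genes; each point is 1 gene, filled where the limma adjusted p was under 0.05, and the vertical scatter within a list has no meaning. Members lie from -2.36 (ITGAV) to 2.89 (ITGB4), and ligands reach -6.21 (SPP1) and 4.80 (TNC).

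Of 16 other integrin subunits, 5 were abundant enough to test, and none met the fold rule with knockdown. ITGB2, the β chain of leukocyte integrins, was at 17.3, 17.003 and 29.4 FPKM in DU145 and at most 0.439 in 769-P (log2 difference 4.12, limma adjusted p = 4.16e-06). In DU145 its leukocyte α partners ITGAL, ITGAM and ITGAX reached at most 0.279 FPKM. The antisense gene ITGB2-AS1 was at 6.06, 2.79 and 10.2 FPKM in DU145, and since strand was not stated the reads of the 2 genes cannot be told apart. ITGB6, another αv partner, was at 5.62, 4.86 and 9.28 FPKM in 769-P and at most 0.344 in DU145 (-2.70, limma adjusted p = 4.40e-05). ITGAD was higher in 769-P (-1.49, limma adjusted p = 0.00212) and ITGA7 in DU145 (1.17, limma adjusted p = 0.00150), while ITGAE gave 0.24 (limma adjusted p = 0.302). ITGA1 shared its row with PELO and was not resolved.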

How the data were processed

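RNA from 6 transfected cultures was sequenced as paired 100-bp reads. Per the labels and the paper, the authors checked the reads with FastQC, trimmed them (cutadapt), aligned them to hg19 with TopHat2, allowing at most 2 mismatches, and the deposited FPKM values, 1 per gene and library, came from Cufflinks. Versions and annotation were not given in the sources used here. The methods speak of biological replicates, while the labels give 1 library per siRNA, and the 2 sources name different library kits. FPKM holds no read count, so no count test was used and depth was estimated from the ratios of low values.

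Repeated symbols were summed, and log2(FPKM + 1) was analysed for the 11865 genes whose average across all libraries reached 1 FPKM. Fits used limma 3.58.1 in R 4.3.3 with a trended prior and Benjamini-Hochberg adjustment over all genes tested, with 4 groups for knockdown and 3 libraries a line for DU145 against 769-P. Apart from that, a gene was called changed where each siRNA moved it 1.5-fold and both the same way, which is not a test. The scripts were tested on simulated data.

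The members and lists were chosen with earlier results of these data known. Named were the 10 members, SPOP, per list and line the 3 called genes with the largest mean change, per list the 3 with the largest difference between lines past adjusted p 0.05, other subunits with a mean of at least 1 FPKM, and the 3 genes nearest to the member with the largest change shared by both siRNAs in each line. Markers and antisense genes were added for checks, and some markers are not reported here. Gene positions are from GENCODE on GRCh37, and promoters from RefSeq on GRCh38.p14; where a gene had several starts, the one found near the start of most transcripts was used. Alternatives were other pseudocounts, filters, scalings and thresholds, a replicate block, and leaving out single libraries. Each library was left out in turn where levels or shares were compared between the lines. For knockdown only siRNA libraries were left out, so the single control of a line was always kept.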

Additional observations from a re-analysis of the deposited data

Results flagged for a closer look

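In 3 of the 9 members tested, every SPOP siRNA moved the transcript one way in DU145 and the other way in 769-P. The share of all genes tested that did so was not counted, so whether this is unusual is not known. Both differences of a line rest on the same control and are not independent. ITGB1 was above control with both siRNAs in DU145 and below it with both in 769-P, and the effect in DU145 minus that in 769-P was 0.61 on the log2 scale (SE 0.33). ITGA3 showed the same directions, with a difference of 0.32 (SE 0.29). ITGAV showed the opposite ones, with a difference of -0.48 (SE 0.38), though with siRNA 2 in DU145 it lay at only -0.03. None of these differences passed limma (adjusted p = 0.999 for each).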

How the results depend on the processing

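By limma the line difference kept its direction and its call in each of the 6 members that passed: 6 members passed under every alternative but 2, with 7 where no filter was used (ITGB8 was then tested too) and 5 with a mean of at least 5 FPKM, which ITGB3 did not reach. No member passed limma for knockdown, or for the difference of knockdown between the lines, under any alternative run. The number of members called 1.5-fold in 769-P was 1 with a mean of at least 5 FPKM (ITGA6), 0 at a 2-fold threshold, and 2 to 4 with an siRNA library left out; it was 3 with a pseudocount of 0.1 or with olfactory receptor background subtracted, ITGA2 being added. In DU145 it was 1 to 2 with an siRNA library left out.

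Some small differences changed sign, none of them past the limma threshold. With quantile normalization the difference of knockdown between the lines became -0.0755 for ITGA2, -0.0540 for ITGA5 and -0.141 for ITGB5, on the log2 scale. With single libraries left out it ran from -0.17 to 0.33 for ITGA5, from -1.10 to 0.0373 for ITGB4 and from -0.56 to 0.61 for ITGB5, and the difference between the lines ran from -0.0319 to 0.22 for ITGA5 and from -0.0129 to 0.57 for ITGB5. With olfactory receptor background subtracted, the mean knockdown difference of ITGB3 in DU145 went from -0.15 to 0.0982. The cause of these changes was not tested.

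Over all genes the limma counts depended on the setting. The members' limma counts for knockdown were at 0 and could not fall, so the shifts cannot be set against them. Without a filter, leaving out genes at 0 in every library, 678 genes passed for knockdown in DU145 (16 as reported), 6 in 769-P (12) and 326 for the difference (20). With a mean of at least 5 FPKM the counts were 4 in DU145 and 3 for the difference, which was 10 with quantile normalization and 0 with a pseudocount of 0.1. With single libraries left out the counts were 22 to 30 in DU145, 0 in 769-P and 0 to 37 for the difference. By the 1.5-fold rule, 701 genes in DU145 became 1132 with a pseudocount of 0.1, 1140 without a filter, 440 with a mean of at least 5 FPKM, 118 at 2-fold and 1787 to 2308 with an siRNA library left out; in 769-P 869 became 1489 with a pseudocount of 0.1, 573 with a mean of at least 5 FPKM, 145 at 2-fold and 1723 to 2388 with a library left out. The deviation of siRNA 2 from siRNA 1 correlated between the lines with a Pearson r of 0.27 across genes, which are not independent replicates, and the lines share only the siRNA number. With a replicate block on that number, 0 members passed in each knockdown comparison (18, 14 and 8 genes in all). For the line difference the replicate block was the condition, which pairs the controls too, and 6 members passed (6716 genes, 5509 as reported). Depth behind single values is unknown, so values near 1 FPKM have no error of their own.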

Other observations

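Several genes of the integrin lists share a row with a microRNA or another gene and were therefore not counted in their lists. The row of LAMB3 and MIR4260 stood at 277, 265 and 263 FPKM in DU145 and at 7.65, 6.26 and 11.97 FPKM in 769-P; LAMB3 is the β chain of an epithelial laminin that α3β1 and α6β4 bind. The row of the laminin chain LAMA5 with MIR4758 was at 106, 62.9 and 76.4 FPKM in DU145 and at 84.6, 59.0 and 55.8 FPKM in 769-P. It was below its control in every knockdown library. The row of COL17A1 and MIR936, COL17A1 being a hemidesmosome collagen, was at 2.75, 3.30 and 5.50 FPKM in DU145 and at most 0.417 in 769-P. The row of talin 1 (TLN1) with MIR6852 overlapped between the lines, at 93.3, 128 and 102 FPKM in DU145 and 72.5, 108 and 72.7 FPKM in 769-P. The row of ITGA1 and PELO was at 18.2 to 19.6 FPKM in DU145 and 12.9 to 17.1 FPKM in 769-P. These rows were chosen after their values were seen, and no test was made on them.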
